A study of Mus musculus with 6 samples.

Results

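Yap1, its sister gene Wwtr1, the transcription factor gene Tead1 and 7 genes known as YAP and TEAD targets or regulators were followed in mouse liver RNA. The 10 genes were taken by name as rows of the authors' deposited table, which holds 16426 genes, of which 14114 were tested. All 10 had a row and were tested, with connective tissue growth factor under its older symbol Ctgf (now Ccn2) and its relative under Cyr61 (now Ccn1). The labels list 6 liver samples of male C57/BL mice, 3 from a group exposed to 20% carbon tetrachloride (CCl4) for 10 weeks, a solvent that injures hepatocytes and brings on fibrosis, and 3 from a normal group given saline. The design also names mice that received the flavonoid didymin as well, and none of the 6 listed samples is labelled so. The table compares a set of 3 libraries called ly_A with a set of 3 called ly_B, and neither name matches a sample label. Every difference below is therefore one of ly_A against ly_B and is not tied to CCl4 or to saline. The columns of single libraries entered no calculation for the same reason, so no level, spread or read depth is given beside a fold change. The labels number the libraries of a group without saying more of their source, and a p-value measures only the spread between libraries, which may be technical in part. The labelled tissue was for that reason not checked by the level of its markers.

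The Hippo pathway is a kinase cascade that holds back growth. Its kinases phosphorylate the coactivators YAP (from Yap1) and TAZ (from Wwtr1), which keeps them out of the nucleus. When the kinases are quiet, YAP and TAZ enter the nucleus, bind TEAD proteins on DNA and raise genes of the matrix, of adhesion and of growth, several of which feed back on the pathway. In liver the pathway is known for its control of organ size, for bile duct cell fate and for the activation of stellate cells. RNA levels do not show the phosphorylation or the location of these proteins.

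TEAD proteins are known to bind the letters GGAATG, and the promoters of the members are shown first because this word stands in most of them. RefSeq promoter windows (build GRCm38.p6, another build than the mm9 of the submitters' processing notes) run from 250 bases before to 50 bases after a gene's start. The windows below belong to Ajuba and Cyr61, which differed most towards ly_B, to Yap1, to Ankrd1, which was not called, and to Amotl2, which was higher in ly_A. Capitals mark GGAATG, written as CATTCC where it lies on the strand opposite to the gene, and each sequence reads 5′ to 3′ along the gene.
Ajuba, chr14:54577612-54577911, minus strand: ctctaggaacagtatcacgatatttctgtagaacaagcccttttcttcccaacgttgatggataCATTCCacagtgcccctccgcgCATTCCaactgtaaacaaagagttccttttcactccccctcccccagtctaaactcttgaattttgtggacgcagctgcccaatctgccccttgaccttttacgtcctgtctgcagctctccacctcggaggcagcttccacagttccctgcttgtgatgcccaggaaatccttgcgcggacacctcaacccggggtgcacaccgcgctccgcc
Cyr61, chr3:145649936-145650235, minus strand: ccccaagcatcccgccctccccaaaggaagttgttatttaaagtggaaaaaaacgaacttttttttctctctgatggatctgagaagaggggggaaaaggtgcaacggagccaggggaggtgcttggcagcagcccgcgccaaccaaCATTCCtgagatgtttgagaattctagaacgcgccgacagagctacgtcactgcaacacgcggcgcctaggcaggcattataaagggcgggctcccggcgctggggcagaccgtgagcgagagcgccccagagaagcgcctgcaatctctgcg
Yap1, chr9:8004547-8004846, minus strand: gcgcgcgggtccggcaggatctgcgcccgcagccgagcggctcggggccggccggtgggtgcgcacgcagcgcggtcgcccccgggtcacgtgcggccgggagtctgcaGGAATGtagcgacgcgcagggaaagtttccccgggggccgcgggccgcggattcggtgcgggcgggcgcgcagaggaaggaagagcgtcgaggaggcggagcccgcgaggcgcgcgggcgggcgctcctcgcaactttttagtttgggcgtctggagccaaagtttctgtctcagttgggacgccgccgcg
Ankrd1, chr19:36119795-36120094, minus strand: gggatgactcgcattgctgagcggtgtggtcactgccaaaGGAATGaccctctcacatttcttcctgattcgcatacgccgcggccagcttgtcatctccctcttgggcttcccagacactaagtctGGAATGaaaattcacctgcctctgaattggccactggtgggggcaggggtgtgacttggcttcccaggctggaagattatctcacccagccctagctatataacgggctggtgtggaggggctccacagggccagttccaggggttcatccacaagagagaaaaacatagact
Amotl2, chr9:102717554-102717853, plus strand: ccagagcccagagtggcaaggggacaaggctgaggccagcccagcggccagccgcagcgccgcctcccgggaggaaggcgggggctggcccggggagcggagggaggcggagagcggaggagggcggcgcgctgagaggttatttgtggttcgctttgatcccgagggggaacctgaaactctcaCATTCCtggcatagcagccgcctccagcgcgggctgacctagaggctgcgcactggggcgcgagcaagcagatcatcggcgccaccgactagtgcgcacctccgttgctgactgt

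The promoter table held 10 windows for 8 of the 10 members. At least 1 window of 7 of these 8 genes held GGAATG on either strand, and that of Nt5e did not. Across the whole promoter table, 4481 of 27025 genes (16.6%) and 14.7% of windows held it. The members were named because of their tie to TEAD, so this share is a description and no test was made. Ajuba held the word with its first letter 186 and 164 bases upstream of the start, and Ankrd1 at 210 and 123 bases upstream. The word lay 141 bases upstream in Yap1, 103 in Cyr61 and 65 in Amotl2. In both overlapping windows of Wwtr1 it was the same copy of the word, and in Lats2 it lay just inside the gene. GGAATG begins with the letters GGAA that ETS factors also read. The AP-1 word TGANTCA, searched because AP-1 often acts beside TEAD, was in none of the 10 windows, against 7.81% of all windows. With 2 copies each, Ajuba stood at a log2 fold change of -2.67 and Ankrd1, not called, at -0.14 in the authors' deposited table. Cyr61, with 1 copy, stood at -1.70 in that table. A relation of copy number to fold change was not tested.

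**Figure D1:**
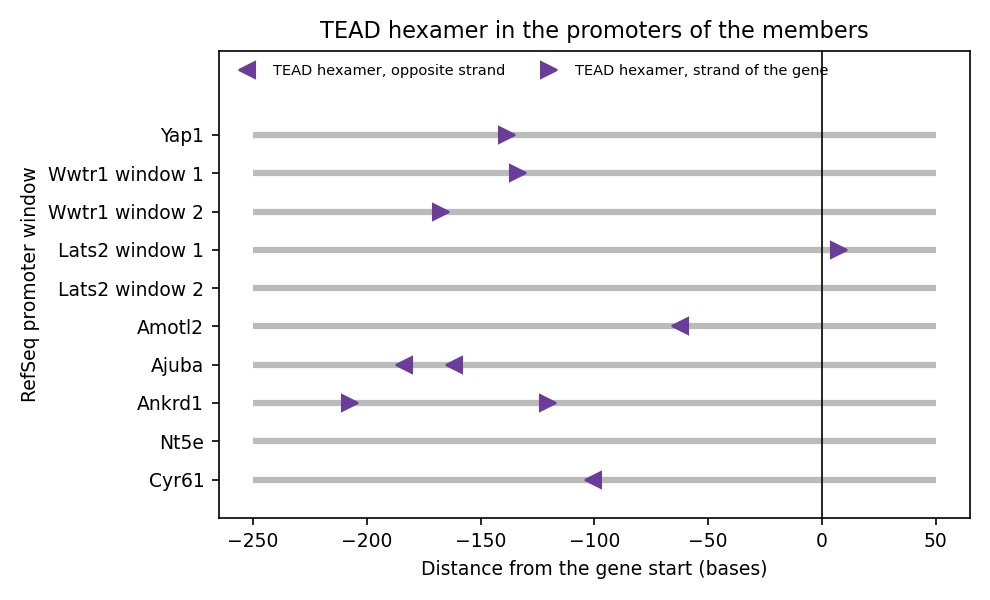
Position of the TEAD hexamer in the RefSeq promoter windows of the members, with the distance from the gene start in bases on the horizontal axis and 1 line per window. Triangles mark a match and point along its strand, and 8 of the 10 windows carry at least 1.

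Of the 10 members, 2 were higher in ly_A and 5 were higher in ly_B at an adjusted p under 0.05 in the authors' deposited table, and 3 were not called. Among all tested genes of the authors' deposited table, 18.1% were higher in ly_A and 17.7% were higher in ly_B. The members' median log2 fold change was -0.60 in the authors' deposited table, beside 0.07 for all tested genes. All fold changes are ly_A over ly_B, so a negative value means a higher level in ly_B. With a 2-fold difference required as well, 1 member was higher in ly_A (Nt5e) and 2 in ly_B (Ajuba and Cyr61), against 10.9% and 7.85% of all genes tested in the authors' deposited table. At an adjusted p under 0.01 the members' counts were again 2 and 5, against 12.3% of tested genes higher in ly_A and 12.7% higher in ly_B in the authors' deposited table.

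**Figure D2:**
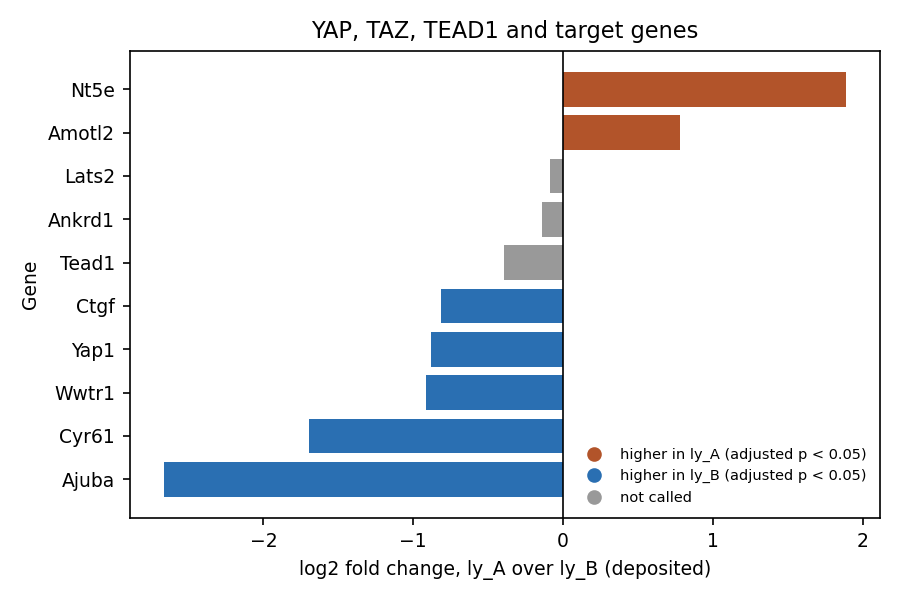
Log2 fold change of each member, ly_A over ly_B, from the authors' deposited table, with bars from 0 and colour for the call at an adjusted p under 0.05. Nt5e and Amotl2 stand above 0, the 5 blue bars run from Ctgf at -0.81 to Ajuba at -2.67, and Lats2, Ankrd1 and Tead1 were not called.

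Both coactivator genes were higher in ly_B, by less than 2-fold. Yap1 stood at a log2 fold change of -0.88 (adjusted p = 2.46e-06), 1.84-fold higher in ly_B, in the authors' deposited table. Wwtr1 stood close to it at -0.91 (adjusted p = 7.88e-05), 1.88-fold higher in ly_B, in the authors' deposited table. Of all tested genes in the authors' deposited table, 12.6% lay further towards ly_B than Yap1 and 11.9% further than Wwtr1, so the size of these differences was not rare. In these bulk samples, fewer cells of a type and less RNA per cell cannot be told apart. An antisense gene, Gm20416, overlaps exons of Yap1 in GENCODE M21 and had no row in the table. Whether reads were counted by strand is not given in the sources used here.

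None of the DNA-binding partners was called. Tead1 stood at -0.39 per the authors' deposited table (adjusted p = 0.237). Its relatives Tead2, Tead3 and Tead4 stood on the other side of 0, at 0.54, 0.38 and 0.87 (smallest adjusted p = 0.186) in the authors' deposited table. Among the VGLL genes, whose proteins compete with YAP for TEAD, Vgll3 stood at 0.28 and Vgll4 at -0.23 in the authors' deposited table, neither called (smallest adjusted p = 0.623). Vgll1 had no row and Vgll2 was not tested. Of the 5 tested TEAD and VGLL genes outside the members, 0 were called in either direction in the authors' deposited table. The shares of all tested genes were 18.1% higher in ly_A and 17.7% higher in ly_B, and no count was tested against them. Of these 5 genes, 0 had an unadjusted p under 0.05 in the authors' deposited table. A p above the threshold does not show that these genes were level between the sets.

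The matricellular targets, secreted proteins that bind integrins and are read most often as a sign of YAP and TAZ activity, were both higher in ly_B. Cyr61 was 3.24-fold higher in ly_B (log2 -1.70, adjusted p = 1.05e-05) in the authors' deposited table, further than all but 3.42% of tested genes. Ctgf was 1.76-fold higher in ly_B (log2 -0.81, adjusted p = 0.0087) in the authors' deposited table, and 14.2% of tested genes lay further that way. The antisense gene Gm15270 overlaps exons of Ctgf and had no row. Ankrd1, a nuclear ankyrin repeat protein of muscle and a common YAP reporter, was not called, at -0.14 per the authors' deposited table (adjusted p = 0.906). Its difference from Cyr61 and Ctgf was not tested.

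Nt5e encodes CD73, the surface enzyme that makes adenosine from AMP. It was the member furthest towards ly_A, 3.69-fold higher there (log2 1.89, adjusted p = 0.000104) in the authors' deposited table. Only 5.94% of tested genes lay further towards ly_A in the authors' deposited table.

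The feedback genes, which are both targets and regulators, did not share a direction. Ajuba encodes a LIM protein that holds LATS kinases inactive at cell junctions, and it was 6.34-fold higher in ly_B (log2 -2.67, adjusted p = 3.73e-14) in the authors' deposited table. It ranked 188th of 14114 genes towards ly_B and 140th by p-value in the authors' deposited table. Amotl2 encodes an angiomotin that holds YAP outside the nucleus, and it was 1.72-fold higher in ly_A (log2 0.78, adjusted p = 0.00165) in the authors' deposited table. Lats2, a kinase that phosphorylates YAP and TAZ, was not called, at -0.09 per the authors' deposited table (adjusted p = 0.802). Exons of Lats2 overlap those of Gm49361 on the same strand, which can divide its reads, and Gm49361 was not called.

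**Figure D3:**
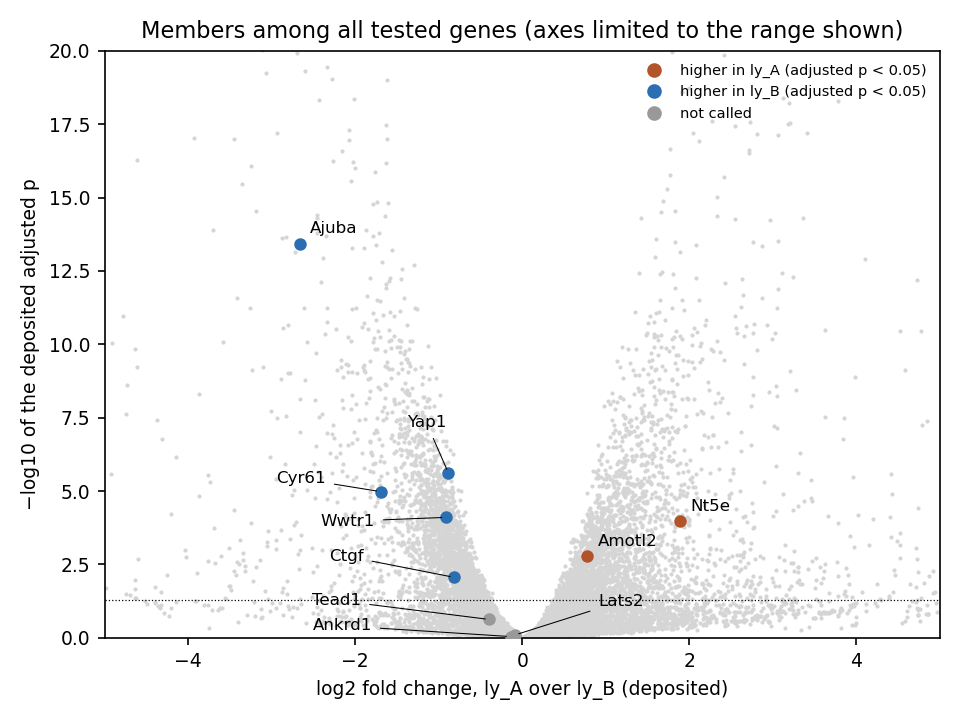
Deposited log2 fold change, ly_A over ly_B, against −log10 of the deposited adjusted p, with all tested genes in grey, the members in colour and a dotted line at an adjusted p of 0.05. Ajuba stands apart from the other members, and 159 genes lie outside the axes. Yap1, Wwtr1 and Ctgf lie close together in fold change, between -0.81 and -0.91. Their adjusted p runs from 2.46e-06 (Yap1) to 0.0087 (Ctgf).

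Of 21 tested Hippo regulators outside the members, 5 were higher in ly_A and 13 in ly_B, with a median log2 fold change of -0.89, in the authors' deposited table. The background of all tested genes was 18.1% higher in ly_A and 17.7% higher in ly_B in the authors' deposited table. At an adjusted p under 0.01, 1 regulator was higher in ly_A and 9 in ly_B in the authors' deposited table. The background at that threshold was 12.3% and 12.7%. Lats1 had no row. The median of all tested genes was 0.07 in the authors' deposited table.

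The core kinase cassette was higher in ly_B except for Lats2. Stk3 and Stk4, the MST kinases that activate LATS, stood at -0.78 (adjusted p = 0.0217) and -0.64 (adjusted p = 0.0181) in the authors' deposited table. Their scaffold Sav1 stood at -0.99 (adjusted p = 0.0208) in the authors' deposited table. The LATS partners Mob1a and Mob1b stood at -0.93 (adjusted p = 3.71e-05) and -1.17 (adjusted p = 0.000212) in the authors' deposited table. Counted with Lats2, 0 genes of this cassette of 6 were higher in ly_A and 5 were higher in ly_B in the authors' deposited table. The shares of all tested genes were 18.1% and 17.7%. For these 5, between 7.33% (Mob1b) and 19.3% (Stk4) of tested genes lay further towards ly_B. The 6 were grouped for this count, and no test was made of the group. At an adjusted p under 0.01, Stk3, Stk4 and Sav1 were no longer called. Mob1a and Mob1b are close relatives whose reads can be hard to part.

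Among the called Wwc, Map4k and Taok genes, which act as inputs to the kinases, all but Taok2 were higher in ly_B. Wwc2 at -1.28 and Wwc1 (KIBRA) at -1.03, scaffolds that promote LATS activity, were both higher in ly_B per the authors' deposited table (adjusted p at most 4.34e-05). The kinases Map4k4 at -0.98 and Taok3 at -0.89 were higher in ly_B per the authors' deposited table (adjusted p at most 0.000396). Taok2, from the same kinase family as Taok3, was higher in ly_A at 0.83 (adjusted p = 0.000157) in the authors' deposited table. Taok1 at -0.47 (adjusted p = 0.0529) and Nf2 (merlin), a membrane scaffold, at -0.11 (adjusted p = 0.734) were not called in the authors' deposited table. Frmd6 at -0.96 and the phosphatase gene Ptpn14, whose product binds YAP, at -0.97 were higher in ly_B per the authors' deposited table (adjusted p at most 0.0222).

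Relatives within a family stood in opposite sets. Among angiomotins, Amotl1 was higher in ly_A at 0.97 (adjusted p = 0.0192), with Amotl2, and Amot was higher in ly_B at -1.05 (adjusted p = 0.000253), in the authors' deposited table. Of the Ajuba family, Wtip was higher in ly_A at 0.79 (adjusted p = 0.0463), and Limd1 was not called at -0.20 (adjusted p = 0.388), in the authors' deposited table. Of the giant protocadherins, Fat4 and its ligand Dchs1 were higher in ly_A at 1.19 and 1.12 (adjusted p at most 0.0309) in the authors' deposited table. Fat1 was 4.02-fold higher in ly_B (log2 -2.01, adjusted p = 9.74e-17) in the authors' deposited table. The difference between relatives was not tested, and the columns used list no error of a fold change. At an adjusted p under 0.01, Amotl1, Wtip, Fat4 and Dchs1 were no longer called, and Wtip was also lost when p was adjusted over all rows.

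**Figure D4:**
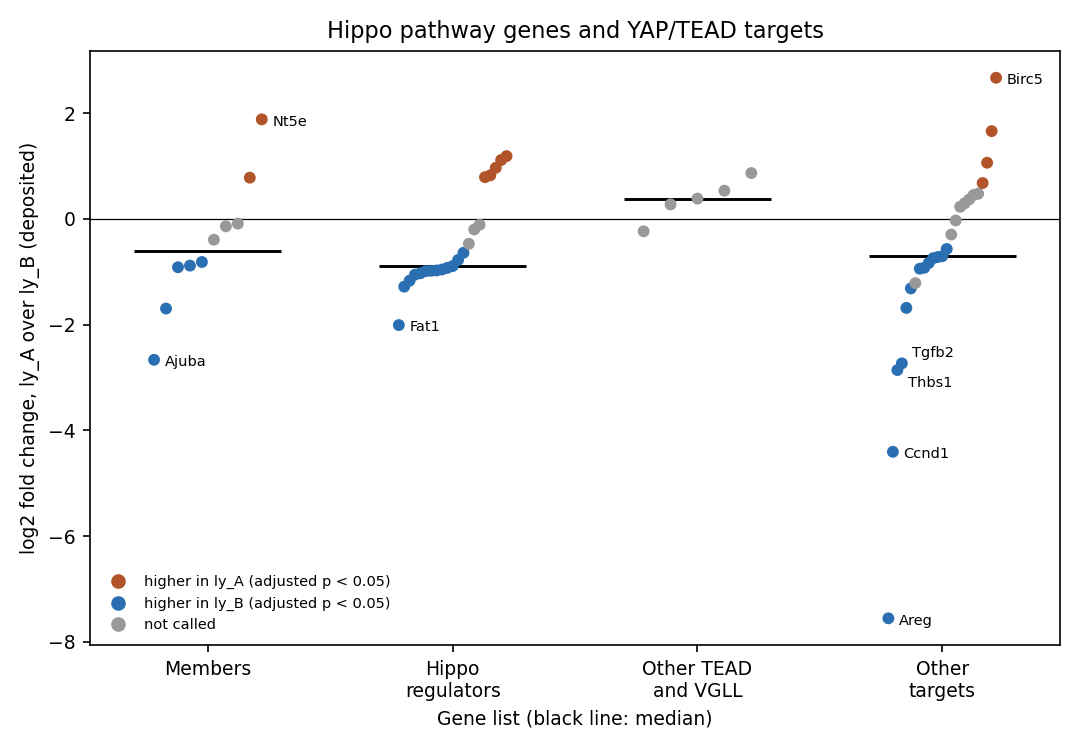
Log2 fold change, ly_A over ly_B, of each tested gene in the members, the Hippo regulators, the other TEAD and VGLL genes and the other YAP and TEAD targets, with a black line at each list's median and names beyond about 1.9 in size. The regulators called towards ly_B cluster between -0.64 and -1.28 apart from Fat1, and the other targets reach from 2.67 for Birc5 to -7.56 for Areg.

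Of 25 tested genes among the other known targets of YAP and TEAD, 4 were higher in ly_A and 13 were higher in ly_B, with a median log2 fold change of -0.71, in the authors' deposited table. The count towards ly_A was near the background of 18.1% of all tested genes, and the background towards ly_B was 17.7%, in the authors' deposited table. Foxf2 had no row. Each of these genes also answers to other signals, and the part of YAP in any call was not tested.

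Secreted and growth genes gave the widest differences among these targets. Thbs1, the matricellular protein thrombospondin, stood at -2.86 per the authors' deposited table (adjusted p = 2.71e-11). The EGF receptor ligand Areg stood at -7.56 (adjusted p = 8.96e-07) and the growth factor Tgfb2 at -2.73 (adjusted p = 9.54e-06) in the authors' deposited table. Fold changes this large can come from a set with few reads, which was not examined. Cyclin D1, Ccnd1, at -4.41 (adjusted p = 5.06e-25), was higher in ly_B, while the mitotic gene Birc5 was higher in ly_A at 2.67 (adjusted p = 0.00381) in the authors' deposited table.

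Sox9, a transcription factor of bile duct cells that YAP is known to raise in hepatocytes, was 3.21-fold higher in ly_B (log2 -1.68, adjusted p = 1.54e-13) in the authors' deposited table. The receptor Notch2 at -0.83 and its ligand Jag1 at -0.94 were higher in ly_B per the authors' deposited table (adjusted p at most 0.00628). Of 6 bile duct markers, Sox9 was the 1 called, with 0 higher in ly_A and 1 higher in ly_B in the authors' deposited table. The shares of all tested genes were 18.1% and 17.7%. Krt19 was not called at 0.98 (adjusted p = 0.100) in the authors' deposited table.

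The stress gene Gadd45a was higher in ly_B at -1.31 (adjusted p = 0.000934) and its relative Gadd45b was higher in ly_A at 1.66 (adjusted p = 0.000142) in the authors' deposited table. Igfbp3, which binds insulin-like growth factors, at 1.06, and the intermediate filament gene Vim, at 0.68, were also higher in ly_A per the authors' deposited table (adjusted p at most 0.00108). Crim1, Asap1, Dock5, Myof and Ccdc80 were higher in ly_B with values between -0.57 and -0.92 per the authors' deposited table (adjusted p at most 0.0402). The 8 targets not called were Axl, Arhgef17, F3, Fjx1, Rbms3, Nuak2, Tgfb1 and Itgb2, whose smallest adjusted p was 0.169 (Axl) in the authors' deposited table.

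Some markers of other liver cell types also differed between ly_A and ly_B. Among all tested genes, 18.1% were higher in ly_A and 17.7% were higher in ly_B in the authors' deposited table. No marker count was tested against these shares. All 6 endothelial markers were higher in ly_A and 0 were higher in ly_B in the authors' deposited table, from Cdh5 at 1.10 to Vwf at 1.89. Of 5 markers of mesothelium, the covering layer of the liver, 0 were higher in ly_A and 3 in ly_B in the authors' deposited table, with a median of -3.08. Of 9 tested stellate cell and fibroblast markers, 0 were higher in ly_A and 2 were higher in ly_B (Pdgfrb at -0.67 and Lum at -0.71) in the authors' deposited table. Lrat, Reln and Col1a1 on the side of ly_B and Dcn on the side of ly_A were not called, although each had an unadjusted p under 0.05. Hepatocyte markers were higher in ly_A in 3 of 5 cases and in ly_B in 0 in the authors' deposited table. Of 5 tested macrophage markers, 2 were higher in ly_A in that table (Clec4f at 2.63 and Cd5l at 0.99). Gpnmb, at -4.93, was the 1 macrophage marker higher in ly_B. Of the muscle markers 2 were tested and 0 were called in either direction at an adjusted p under 0.05 in the authors' deposited table, although both had an unadjusted p under 0.05 on the side of ly_A. Their part in the values of the members was not tested.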

How the data were processed

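The labels list 6 libraries of mouse liver RNA, 3 per group. Per the labels' protocols, Trizol was used to extract RNA and a NEBNext kit to build libraries, and the submitters' processing notes name DESeq2 and build mm9. Which aligner and read counter were used is not given in the sources used here. As the authors made them, deposited log2 fold changes and the deposited p-values and adjusted p-values were used, from 3 columns, and 18 columns of single libraries that match no label entered no calculation, although some of their values were seen when the table was opened. The depth per library was therefore not examined, and a fold change is given without an error. The sign was taken as ly_A over ly_B from the name of the comparison, which the first rows of the table bore out by eye.

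In 14114 genes the deposited adjusted p was recovered by Benjamini-Hochberg adjustment within that group, to a relative difference of 9.47e-13. The other 2312 rows, at an adjusted p of 1, were treated as not tested. A call is an adjusted p under 0.05. Alternatives were a threshold of 0.01, an added 2-fold limit, adjustment over all 16426 rows and subtraction of the median. Members and gene lists were chosen with earlier results of these data known. The rule named every member, any Hippo regulator, and up to 8 called genes of each other list by size. The remaining targets and the TEAD and VGLL genes are named beyond that rule, after their values were seen, to account for each list. A further target was taken out of the list and its counts and is not reported here. Motifs were searched on both strands of RefSeq promoters (GRCm38.p6), and the adjustment and the search were tested on simulated data. The last 50 bases of 8 of the 10 member windows, and the last 20 bases of 9, were found in GENCODE M21 transcripts of the gene, and for Ajuba neither was, so its start may differ between annotations. Python 3.11.15 and pandas 2.3.3 were used.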

Additional observations from a re-analysis of the deposited data

How the results depend on the processing

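Subtracting the median of all tested genes, 0.07, keeps the deposited p-values, so it could not end a call and tests only the sign, which turned in none of the named genes that were called. The 61 named genes include genes not called, which had no call to lose. In the authors' deposited table, 18.1% of all tested genes were higher in ly_A and 17.7% in ly_B. Of the members in that table, 2 were higher in ly_A and 5 in ly_B. The counts were 5 and 13 for Hippo regulators, and 4 and 13 for other targets. Of these calls, adjusting p over all rows ended 1 (Wtip) and an adjusted p under 0.01 ended 13. A 2-fold limit ended 23, Yap1, Wwtr1, Ctgf and Amotl2 among them. With a 2-fold difference as well, 1542 tested genes (10.9%) were higher in ly_A and 1108 (7.85%) in ly_B in the authors' deposited table. Counts there fell to 1 and 2 members, and to 2 and 5 Hippo regulators. Other targets higher in ly_B numbered 6 with that limit and 8 at an adjusted p under 0.01. At that adjusted p, 1 Hippo regulator was higher in ly_A and 9 were higher in ly_B. The shares of all tested genes at that adjusted p were 12.3% and 12.7%. No paired analysis was possible because the library columns match no labelled sample, and leaving out a library or running another count tool was not done for the same reason. Depth and spread behind these fold changes were not examined.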

Other observations

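The word GGAATG was also counted in the promoters of all tested genes that have a RefSeq window, as a description with no test. Of 140 genes with 2 or more copies, 27.1% were higher in ly_A and 18.6% were higher in ly_B in the authors' deposited table. The shares were 20.1% and 16.5% of 1501 genes with 1 copy, and 17.4% and 17.8% of 9525 genes with none, counted from the authors' deposited table. Medians of the log2 fold change in these groups, ly_A over ly_B, were 0.27 with 2 or more copies, 0.10 with 1 copy and 0.05 with none in the authors' deposited table. The few members did not follow the order of these medians. With 2 copies, Ajuba stood at -2.67 and Ankrd1, not called, at -0.14 in the authors' deposited table. Members with 1 copy ran from -1.70 (Cyr61) to 0.78 (Amotl2) in the authors' deposited table. The start of Ajuba may differ between annotations, as given above.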
